A study of Mus musculus with 6 samples.

Results

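Semaphorin, ephrin, Slit and netrin guidance genes were followed in differentiated cells of the C2C12 line, mouse myoblasts that form myotubes once serum is reduced. They were taken by gene name and comprise the class 3 to 7 semaphorins, plexins, neuropilins, ephrins, Eph receptors, Slits, Robos, netrins 1 and 4 and the Unc5 receptors, 66 of the 55420 rows of the deposited table. The table holds 3 libraries labelled FHL3-KO and 3 labelled WT, all collected on day 4 of differentiation in 2% horse serum; before that the cells grew in 10% fetal bovine serum. FHL3 is a LIM-domain protein of striated muscle, and the comparison asks how its knockout changes RNA levels in differentiating muscle cells. The labels name no clone and no method for the knockout, so an effect of a clone and of the genotype cannot be told apart. They do not say whether replicates were separate cultures, so p-values measure the spread between these libraries, which may be technical.

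Guidance cues are secreted or membrane-bound ligands that steer the movement and contact of cells. Class 3 semaphorins are secreted and, for the most part, signal through neuropilins paired with A-type plexins or plexin D1. Most other semaphorins are membrane proteins that bind plexins directly. Ephrins and Eph receptors signal in both directions where cells touch. Slits act through Robo receptors, and netrins through DCC, neogenin and the Unc5 family. In muscle, guidance molecules are studied in motor axon growth, vessel patterning, muscle precursor migration and myoblast fusion.

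The values are FPKM, reads or fragments scaled to gene length and library size, as inferred from the numbers themselves, and their sums ran from 477708 to 494176 in libraries labelled FHL3-KO and from 425080 to 473477 in WT libraries. Fhl3 RNA stood at 57.2, 53.5 and 58.9 FPKM in libraries labelled FHL3-KO and at 27.8, 30.03 and 33.7 FPKM in WT libraries (limma adjusted p = 0.000547), so the RNA of the targeted gene was higher where the label says knockout. All directions below are those of libraries so labelled. The hepatocyte markers Alb, Apoa1, Ttr, Serpina1a and Fgb were listed at 0 in each library labelled FHL3-KO and summed to 77.3 FPKM in 1 WT library, replicate 1, so calls that change without it are given with their values. Of 8 myotube markers 7 rose, and their sum was 7958 to 8419 FPKM in libraries labelled FHL3-KO against 2852 to 3181 FPKM in WT libraries. Of 6 fibroblast markers 1 rose and 3 fell, with sums of 147.5 to 165.9 against 435.1 to 497.7 FPKM. Of 6 markers of undifferentiated or dividing myoblasts 1 rose and 3 fell, with sums of 81.9 to 99.5 against 106 to 132.7 FPKM. Endothelial and Schwann cell markers each summed to under 1 FPKM in every library labelled FHL3-KO, at 0.167 and 0.593 FPKM at most, and to at most 1.26 and 0.729 FPKM in WT libraries. Among 6 neuron markers Rbfox3 was listed at 0 in each library, while Tubb3 and Map2, which muscle cells can also express, fell, and the sums were 129.8 to 149.6 against 194.6 to 220.8 FPKM. The part of these markers in the results below was not tested. In bulk RNA, fewer cells of a type and less RNA per cell cannot be told apart.

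Many guidance genes were listed at low values or at 0. Of the 66 genes, 37 reached a mean of 1 FPKM in a group and were tested, and each of the 37 reached it in both groups. The other 29 stayed below, 8 of them listed at 0 in each library. With limma on log2(FPKM + 1) and Benjamini-Hochberg adjustment over 12528 genes, 17 of the 37 passed an adjusted p of 0.05, called changed below, which is 45.9% against 40.8% of all genes tested. Of these, 13 fell and 4 rose, or 35.1% and 10.8% of those tested, against 21.2% and 19.7% of all genes. In 23 of the 37 genes the 2 groups were free of overlap (62.2%, against 53.8% of all genes). The median difference was -0.08 on the log2(FPKM + 1) scale over the 37 genes and -0.0051 over all genes. This scale compresses differences of genes with low levels. A difference of at least 1 was reached by 4 of the called genes, or 10.8% of those tested, against 6.07% of all genes. The 4 were Sema3c, Sema3d, Plxna2 and Sema4d.

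**Figure D1:**
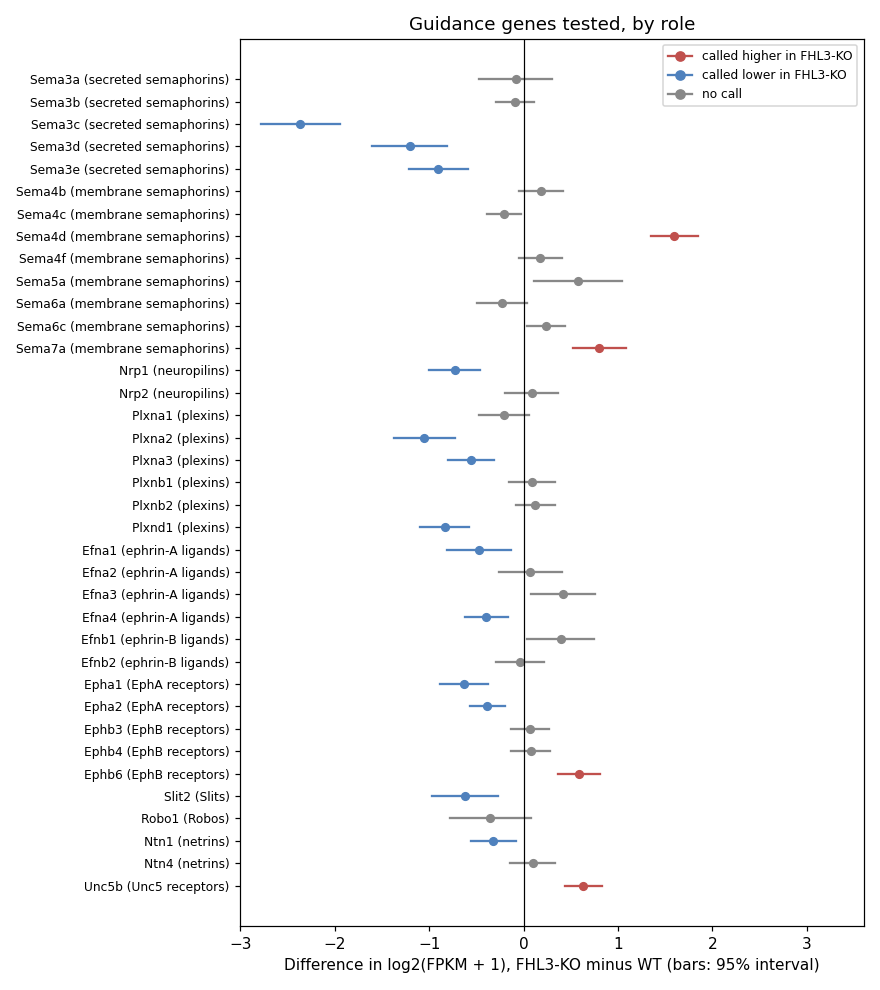
The difference in log2(FPKM + 1), FHL3-KO minus WT, of the 37 genes tested, ordered by role, with 95% limma intervals (n = 3 libraries per group). Red points rose, blue points fell and grey points did not pass; Sema3c lies farthest left at -2.36 and Sema4d farthest right at 1.597.

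The 2 largest falls among the 37 genes were those of secreted semaphorins. Of 7 class 3 genes 5 were tested, of which Sema3c, Sema3d and Sema3e fell and Sema3a and Sema3b did not pass. Sema3c, a ligand of neuropilins with roles in heart outflow tract formation, stood at 3.25, 4.61 and 2.97 FPKM in libraries labelled FHL3-KO and at 27.1, 23.0 and 18.1 FPKM in WT libraries. The groups lay far apart, with the highest library labelled FHL3-KO well under the lowest WT library. The mean level was 0.159 times that in WT, and the log2 difference was -2.36 (SE 0.18, limma adjusted p = 0.000161). Sema3d stood at 7.40, 9.66 and 6.80 FPKM in libraries labelled FHL3-KO and at 23.8, 19.4 and 16.0 FPKM in WT libraries, 0.403 times the WT mean (log2 difference -1.21, SE 0.17, limma adjusted p = 0.00171). Sema3e, which can bind plexin D1 without a neuropilin, stood at 4.26, 4.32 and 4.84 FPKM against 11.1, 9.02 and 7.82 FPKM in WT libraries, 0.481 times the WT mean (log2 difference -0.90, SE 0.13, limma adjusted p = 0.00213). In both genes the groups did not overlap, and WT replicate 1 was the highest library.

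Sema3b was the most abundant class 3 gene in all 6 libraries and did not pass. It stood at 29.0, 27.9 and 33.2 FPKM in those libraries and at 31.8, 32.6 and 31.8 FPKM in WT libraries (log2 difference -0.10, 95% interval -0.30 to 0.11, limma adjusted p = 0.403). Sema3a, a repellent of axons, averaged 1.68 ± 0.46 and 1.83 ± 0.35 FPKM (SD, n = 3 each), and its interval ran from -0.47 to 0.30. With level summed over the 7 class 3 genes, Sema3b took 62.1% ± 5.1 in libraries labelled FHL3-KO and 37.5% ± 4.5 in WT libraries, while Sema3c took 7.45% ± 1.7 and 26.2% ± 2.1. Sema3d took 16.4% ± 3.0 and 22.7% ± 1.7. The summed level itself was 48.4 ± 2.0 FPKM in libraries labelled FHL3-KO and 86.4 ± 10 FPKM in WT libraries. Sema3f and Sema3g reached 0.468 FPKM at most.

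The 3 secreted semaphorins that fell lie on the same chromosome. Sema3d, Sema3a, Sema3e and Sema3c lie in this order on mouse chromosome 5, between positions 12383385 and 17730268 (GRCm38), all on the plus strand. Sema3a, between Sema3d and Sema3e, did not pass the test. Another 6 genes of this stretch were tested, of which 4 are pseudogenes. Of the 6, 2 fell and none rose. They were the calcium channel subunit Cacna2d1 (log2 difference -0.60, limma adjusted p = 0.0415) and the pseudogene Gm8991 (-0.73, adjusted p = 0.0056). Hgf, the ligand of the MET receptor, lies there too and had a log2 difference of 0.21 (limma adjusted p = 0.276).

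Promoter windows outside annotated exons were found for 12 of the genes that passed, of which 7 held a match to a motif searched and 5 (Unc5b, Efna1, Efna4, Nrp1 and Plxna3) held none. Of the 12, 5 with a match and 2 without one, Unc5b and Plxna3, are shown so that genes that fell and genes that rose can be compared; they were chosen with the matches known. They are the 250 bases before the RefSeq start, 5′ to 3′ on the gene's strand, in GRCm38.p6. Capitals mark matches to 5 motifs searched on both strands. The first was the E-box CANNTG. The second was CAGCTG, the E-box form favoured by myogenic bHLH factors, so its matches are counted as E-boxes too. The third was a loose MEF2-like motif, CTA and TAG with any 4 bases between them, whereas a MEF2 site has only A or T there. The fourth was a YY1 core, GCCATNTT, and the fifth was the TEAD element GGAATG. Sema3d (chr5:12382916-12383165, plus strand) and Sema3e (chr5:14025026-14025275, plus strand) are the ligands that fell, Plxnd1 (chr6:115995006-115995255, minus strand) is a receptor that fell, and Sema4d (chr13:51739447-51739696, minus strand, 1 of 3 RefSeq windows) and Sema7a (chr9:57939862-57940111, plus strand) are ligands that rose. Plxna3 (chrX:74328816-74329065, plus strand) is a receptor that fell and Unc5b (chr10:60831582-60831831, minus strand) a receptor that rose.
Sema3d: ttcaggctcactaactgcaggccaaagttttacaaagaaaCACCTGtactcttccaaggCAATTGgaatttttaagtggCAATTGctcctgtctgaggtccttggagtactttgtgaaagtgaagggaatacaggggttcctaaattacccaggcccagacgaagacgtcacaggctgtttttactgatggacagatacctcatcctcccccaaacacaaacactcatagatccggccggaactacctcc
Sema3e: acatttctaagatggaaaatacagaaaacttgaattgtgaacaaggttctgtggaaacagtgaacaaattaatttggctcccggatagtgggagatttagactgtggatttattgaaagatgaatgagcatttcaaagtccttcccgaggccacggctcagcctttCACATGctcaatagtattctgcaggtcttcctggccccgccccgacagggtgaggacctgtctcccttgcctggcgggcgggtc
Plxnd1: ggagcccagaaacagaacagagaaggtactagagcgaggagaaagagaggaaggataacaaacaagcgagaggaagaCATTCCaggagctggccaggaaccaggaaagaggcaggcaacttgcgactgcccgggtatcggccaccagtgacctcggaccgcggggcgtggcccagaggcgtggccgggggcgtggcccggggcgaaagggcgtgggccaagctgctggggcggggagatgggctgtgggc
Sema4d: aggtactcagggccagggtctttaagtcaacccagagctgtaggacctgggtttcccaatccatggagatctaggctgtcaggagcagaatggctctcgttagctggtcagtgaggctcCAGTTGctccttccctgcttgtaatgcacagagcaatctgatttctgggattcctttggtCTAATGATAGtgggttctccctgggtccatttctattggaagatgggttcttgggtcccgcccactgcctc
Sema7a: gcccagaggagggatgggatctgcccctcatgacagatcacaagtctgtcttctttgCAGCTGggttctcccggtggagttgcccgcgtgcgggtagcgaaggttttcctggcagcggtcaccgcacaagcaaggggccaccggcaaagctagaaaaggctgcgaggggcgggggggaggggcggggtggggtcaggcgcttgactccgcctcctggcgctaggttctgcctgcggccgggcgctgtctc
Plxna3: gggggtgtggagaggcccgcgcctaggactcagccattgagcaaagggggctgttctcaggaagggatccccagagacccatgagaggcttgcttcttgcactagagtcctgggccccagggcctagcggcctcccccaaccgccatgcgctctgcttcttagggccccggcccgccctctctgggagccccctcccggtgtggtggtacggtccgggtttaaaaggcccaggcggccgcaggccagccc
Unc5b: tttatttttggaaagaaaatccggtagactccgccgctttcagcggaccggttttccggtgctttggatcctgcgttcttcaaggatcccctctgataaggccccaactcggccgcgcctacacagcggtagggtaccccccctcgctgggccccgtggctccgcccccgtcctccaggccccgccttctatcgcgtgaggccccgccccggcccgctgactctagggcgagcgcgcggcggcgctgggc
Sema3d held 3 E-box matches, 171, 191 and 210 bases before the start, and Sema3e held 1, at 84 bases. Plxnd1 held no E-box and 1 TEAD match, read as CATTCC, at 173 bases. The Sema4d window shown held an E-box, CAGTTG, at 131 bases and the loose MEF2-like match CTAATGATAG at 71 bases, which has a G among its middle bases. Sema7a held CAGCTG at 193 bases. RefSeq windows were found for 57 of the 66 genes, 73 windows in all. The genes without one were Efnb3, Ntn1, Plxna1, Plxna4, Sema3b, Sema3f, Sema6a, Slit1 and Unc5d. The shares below also count windows that overlap annotated exons. The 6 windows of genes that rose belong to 4 genes, and 3 of these windows are of Sema4d. A Sema4d window not shown holds CAGCTG and has 119 exon bases. An E-box was present in 30.8% of 13 windows of genes that fell and in 66.7% of 6 windows of genes that rose, against 66.2% of all 32851 windows, and CAGCTG in 0 of 13 and 2 of 6, against 13% of all. The TEAD element was present in 3 of 13 and 0 of 6 windows, against 12.6% of all, and the MEF2-like motif in 0 of 13 and 1 of 6, against 3.2% of all. The YY1 core was in none of the windows of called genes and in 3.9% of all. These counts describe letters in a short window and say nothing of binding.

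The largest rise among the 37 genes was that of a membrane semaphorin. Of 13 genes 8 were tested, of which Sema4d and Sema7a rose and none fell. Sema4d, a plexin B ligand also known as CD100, stood at 12.5, 12.5 and 11.4 FPKM in libraries labelled FHL3-KO and at 3.82, 3.21 and 3.04 FPKM in WT libraries. The lowest library labelled FHL3-KO was far above the highest WT library, the mean was 3.62 times the WT mean, and the log2 difference was 1.597 (SE 0.11, limma adjusted p = 8.99e-05). Its share of the summed level of the 6 class 4 genes was 17.6% ± 1.6 in libraries labelled FHL3-KO and 5.15% ± 0.64 in WT libraries. Sema7a, a lipid-anchored semaphorin that binds integrins and plexin C1, stood at 22.0, 23.1 and 28.7 FPKM against 12.3, 13.8 and 14.8 FPKM in WT libraries, 1.81 times the WT mean (log2 difference 0.80, SE 0.12, limma adjusted p = 0.00231). Its groups did not overlap either. Plxnc1, the plexin for Sema7a, was at most 0.0238 FPKM in any library.

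The other membrane semaphorins did not pass. Sema4c, a plexin B2 ligand known from myogenic cells, was the most abundant semaphorin, at 41.4, 40.1 and 45.8 FPKM in libraries labelled FHL3-KO and at 48.4, 50.1 and 48.6 FPKM in WT libraries. The groups did not overlap, but the log2 difference of -0.21 had a limma adjusted p of 0.0684. It passed after 3 changes of processing, quantile normalization (-0.32, adjusted p = 0.014), scaling to the same sum (-0.31, 0.0214) and removal of the trend with length and GC content (-0.36, 0.00329), and also without the replicate 3 labelled FHL3-KO (-0.26, 0.0474). Sema6c stood at 19.7, 19.9 and 22.6 FPKM against 17.4, 18.3 and 16.6 FPKM in WT libraries, higher in each library labelled FHL3-KO, with a log2 difference of 0.24 (limma adjusted p = 0.0643). Sema6a, a transmembrane ligand of plexins A2 and A4, stood at 14.7, 17.0 and 13.8 FPKM against 20.1, 17.8 and 15.9 FPKM in WT libraries, with overlapping groups (adjusted p = 0.151). Sema5a averaged 2.39 ± 0.89 and 1.24 ± 0.28 FPKM and narrowly missed the threshold (log2 difference 0.58, 95% interval 0.11 to 1.04, limma adjusted p = 0.0517). It passed in 8 of the other settings, at most at 0.90 (adjusted p = 0.0015) after removal of the length and GC trend. Sema4b averaged 7.79 ± 0.75 and 6.71 ± 0.34 FPKM, and Sema4f 6.39 ± 0.40 and 5.53 ± 0.34 FPKM (SD, n = 3 each). Sema4f passed after quantile normalization (log2 difference 0.30, limma adjusted p = 0.0463). Sema4a, Sema4g, Sema6b and Sema6d reached 0.495 FPKM at most, and Sema5b was listed at 0.

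**Figure D2:**
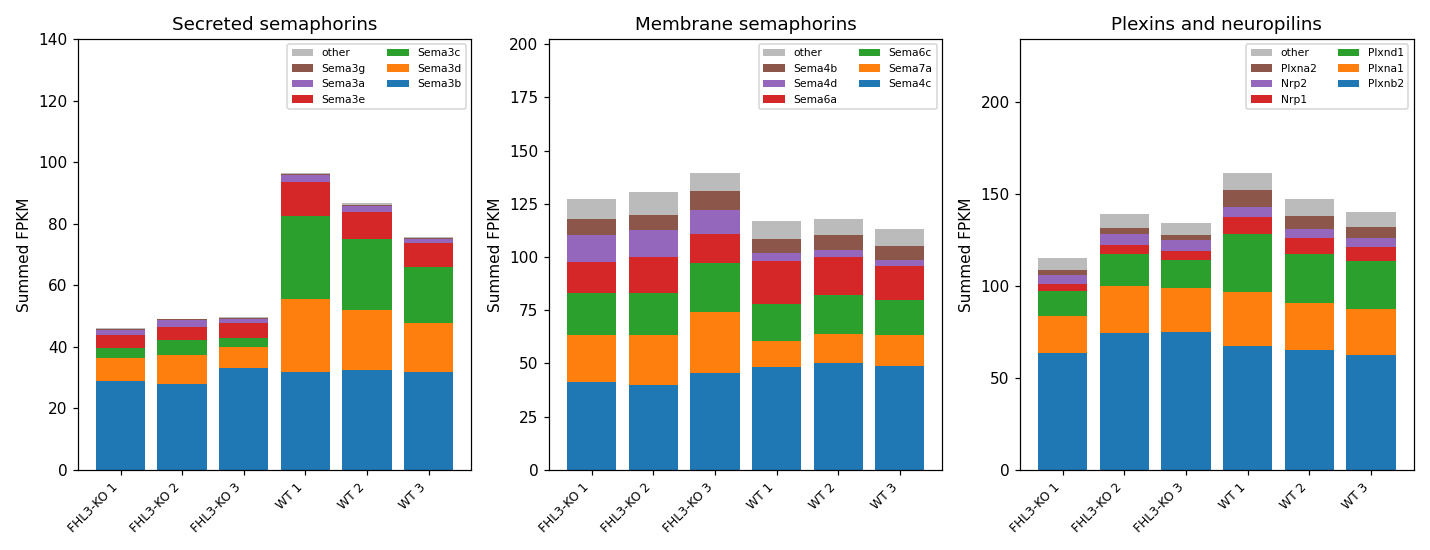
Summed FPKM of secreted semaphorins, membrane semaphorins and plexins with neuropilins in each library, stacked by gene (the 6 most abundant of each panel, the rest in grey). In the left panel the Sema3c and Sema3d segments are smaller in each library labelled FHL3-KO than in any WT library, while Sema3b is close to 30 FPKM in all 6.

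Of the 2 neuropilins Nrp1 fell and Nrp2 did not pass. Nrp1, which binds class 3 semaphorins and also VEGF, stood at 3.96, 5.01 and 4.71 FPKM in libraries labelled FHL3-KO and at 8.98, 8.27 and 7.38 FPKM in WT libraries, 0.555 times the WT mean and without overlap (log2 difference -0.73, SE 0.12, limma adjusted p = 0.00298). Nrp2 averaged 5.60 ± 0.72 and 5.20 ± 0.48 FPKM (SD, n = 3 each; log2 difference 0.09, 95% interval -0.19 to 0.37).

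Of the 9 plexins 6 were tested, of which Plxna2, Plxna3 and Plxnd1 fell and none rose. Plxna2 stood at 2.76, 3.33 and 3.07 FPKM in libraries labelled FHL3-KO and at 8.92, 7.25 and 6.21 FPKM in WT libraries, 0.41 times the WT mean (log2 difference -1.05, SE 0.14, limma adjusted p = 0.00137). Plxnd1, the receptor of Sema3e, stood at 13.6, 17.2 and 15.3 FPKM against 31.6, 26.7 and 26.4 FPKM in WT libraries (0.545 times, log2 difference -0.84, SE 0.11, adjusted p = 0.00148). Plxna3 stood at 2.93, 3.34 and 3.08 FPKM against 5.53, 4.93 and 4.72 FPKM in WT libraries (0.617 times, log2 difference -0.56, SE 0.11, adjusted p = 0.00565). None of these 3 had overlapping groups. Plxna1 was the most abundant A-type plexin, at 20.0, 25.5 and 23.7 FPKM against 29.7, 25.6 and 24.9 FPKM in WT libraries, and overlapped (log2 difference -0.21, limma adjusted p = 0.183).

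The B-type plexins, receptors of class 4 semaphorins, did not pass. Plxnb2, which binds Sema4c and Sema4d, was the most abundant of the 66 genes, at 63.5, 74.5 and 75.0 FPKM in libraries labelled FHL3-KO and at 67.2, 65.3 and 62.4 FPKM in WT libraries. The groups overlapped, and the log2 difference of 0.12 had a 95% interval from -0.08 to 0.33 (limma adjusted p = 0.30). Plxnb1, a receptor of Sema4d, averaged 2.55 ± 0.18 and 2.34 ± 0.10 FPKM, with an interval from -0.16 to 0.33. Plxnb2 took 59.6% ± 1.3 of the summed level of the 9 plexins in libraries labelled FHL3-KO and 47.7% ± 1.7 in WT libraries, and Plxnd1 took 12.9% ± 0.53 and 20.7% ± 0.78. Plxnb3 and Plxna4 stayed below the filter. Plxna4 was at 0.282, 0.514 and 0.295 FPKM against 0.808, 0.824 and 0.544 FPKM in WT libraries, without overlap.

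Among ephrins and Eph receptors, 4 A-class genes fell and 1 B-class gene rose. Of 5 ephrin-A ligands, which are lipid-anchored, 4 were tested, and Efna1 and Efna4 fell. Efna4 stood at 5.63, 4.99 and 5.09 FPKM in libraries labelled FHL3-KO and at 6.75, 7.68 and 7.20 FPKM in WT libraries, 0.726 times the WT mean (log2 difference -0.40, SE 0.098, limma adjusted p = 0.0155). Efna1 stood at 3.37, 3.42 and 5.01 FPKM against 5.76, 5.44 and 6.16 FPKM in WT libraries, 0.68 times the WT mean (log2 difference -0.48, SE 0.14, adjusted p = 0.034), with replicate 3 labelled FHL3-KO closest to WT. The Efna4 call ended without WT replicate 2 (-0.36, limma adjusted p = 0.0774), after quantile normalization (-0.29, 0.0622) and with no filter on low values (0.0558). The Efna1 call ended without each library but the replicate 3 labelled FHL3-KO, at adjusted p values of 0.0747 to 0.111. Without WT replicate 1 the Efna1 difference was -0.48 (limma adjusted p = 0.0884). The Efna1 call also ended after quantile normalization (-0.33, 0.119).

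Efna3 lies between these genes. Efna1, Efna3 and Efna4 stand side by side on the minus strand of chromosome 3, from 89271733 to 89338028 (GRCm38), and no other gene between them was tested. Efna3 averaged 2.45 ± 0.43 FPKM in libraries labelled FHL3-KO and 1.59 ± 0.31 FPKM in WT libraries (SD, n = 3 each), higher in each library labelled FHL3-KO, and did not pass (log2 difference 0.41, 95% interval 0.08 to 0.75, limma adjusted p = 0.0538). It passed after quantile normalization (0.57, adjusted p = 0.0231) and with limma without a trend (0.0407). It took 15.6% ± 1.5 of the summed ephrin-A level in libraries labelled FHL3-KO and 8.81% ± 1.2 in WT libraries. Efna2 averaged 3.48 ± 0.43 and 3.28 ± 0.62 FPKM. Efna5 was below the filter at 0.578, 0.43 and 0.505 FPKM against 0.0469, 0.0794 and 0.0566 FPKM in WT libraries, a mean ratio of 8.27 at levels where the depth is unknown.

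Both EphA receptors that were tested fell. Epha2, a receptor of ephrin-A1, stood at 20.9, 20.5 and 19.5 FPKM in libraries labelled FHL3-KO and at 28.0, 27.4 and 25.1 FPKM in WT libraries, 0.757 times the WT mean (log2 difference -0.38, SE 0.08, limma adjusted p = 0.00815). Epha1 stood at 3.57, 3.89 and 4.23 FPKM against 7.28, 6.14 and 6.29 FPKM in WT libraries, 0.594 times the WT mean (log2 difference -0.63, SE 0.11, adjusted p = 0.00397). Neither gene had overlapping groups. Of the other 7 EphA receptors, Epha4 reached 0.906 FPKM at most and the other 6 reached 0.0437 FPKM at most.

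In the B class, Ephb6 rose. Ephb6, an Eph receptor whose kinase domain is inactive, stood at 9.88, 9.91 and 11.7 FPKM in libraries labelled FHL3-KO and at 6.59, 6.52 and 6.77 FPKM in WT libraries, 1.58 times the WT mean and without overlap (log2 difference 0.59, SE 0.097, limma adjusted p = 0.00332). The kinase-active Ephb3 stood at 11.5, 11.7 and 11.98 FPKM against 10.3, 11.4 and 11.7 FPKM in WT libraries, with overlapping groups. Ephb4, the receptor of ephrin-B2, stood at 13.4, 12.2 and 14.1 FPKM against 12.2, 13.2 and 12.2 FPKM. Efnb2, its transmembrane ligand, stood at 13.6, 16.0 and 14.1 FPKM against 16.9, 14.6 and 13.6 FPKM in WT libraries. All 3 overlapped, at log2 differences of 0.07, 0.07 and -0.04 (limma adjusted p of 0.546, 0.526 and 0.792). Efnb1 averaged 3.91 ± 0.82 and 2.72 ± 0.37 FPKM and did not pass (log2 difference 0.39, adjusted p = 0.0728), but passed after quantile normalization (0.56, 0.0327) and without the replicate 2 labelled FHL3-KO (0.50, 0.0339). Ephb1 was listed at 0, and Ephb2 and Efnb3 reached 0.408 FPKM at most.

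Of the netrins, Slits and their receptors, 5 of 13 genes were tested. Netrin-1 (Ntn1), a diffusible ligand, stood at 11.98, 12.8 and 14.4 FPKM in libraries labelled FHL3-KO and at 15.1, 16.8 and 17.8 FPKM in WT libraries, 0.79 times the WT mean (log2 difference -0.32, SE 0.10, limma adjusted p = 0.04). The groups came close without overlap. Its call ended when replicate 1 or 2 labelled FHL3-KO or WT replicate 2 or 3 was left out, at adjusted p values of 0.0731 to 0.131, and with no filter on low values (0.185). Netrin-4 (Ntn4), a basement membrane netrin, stood at 16.4, 18.9 and 15.8 FPKM against 15.5, 17.4 and 14.6 FPKM in WT libraries and overlapped (log2 difference 0.10, limma adjusted p = 0.462). Unc5b, the netrin receptor also known from blood vessels, stood at 30.4, 35.9 and 33.3 FPKM against 21.3, 20.4 and 21.3 FPKM in WT libraries, 1.58 times the WT mean (log2 difference 0.63, SE 0.085, limma adjusted p = 0.00148). Its groups lay apart. Unc5a and Unc5c reached 0.0679 FPKM at most, Unc5d and the netrin receptor Dcc were listed at 0, and the related receptor neogenin (Neo1) averaged 14.9 and 15.4 FPKM (limma adjusted p = 0.884).

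Slit2 stood at 1.55, 2.16 and 1.598 FPKM in libraries labelled FHL3-KO and at 3.98, 2.95 and 2.83 FPKM in WT libraries, 0.544 times the WT mean (log2 difference -0.62, SE 0.15, limma adjusted p = 0.015). The groups did not overlap. The call ended after removal of the length and GC trend (-0.24, adjusted p = 0.0674) and without the replicate 1 labelled FHL3-KO (-0.56, adjusted p = 0.0545). Robo1, the only Robo tested, averaged 2.10 ± 0.61 and 2.94 ± 0.67 FPKM (SD, n = 3 each) and did not pass (log2 difference -0.35, limma adjusted p = 0.16). Without the replicate 2 labelled FHL3-KO it passed (-0.51, adjusted p = 0.0455). Robo3, Robo4 and Slit3 were listed at 0, Robo2 reached 0.0283 FPKM at most, and Slit1 was at 0.37, 0.27 and 0.229 FPKM against 0.0757, 0.146 and 0.21 FPKM in WT libraries.

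**Figure D3:**
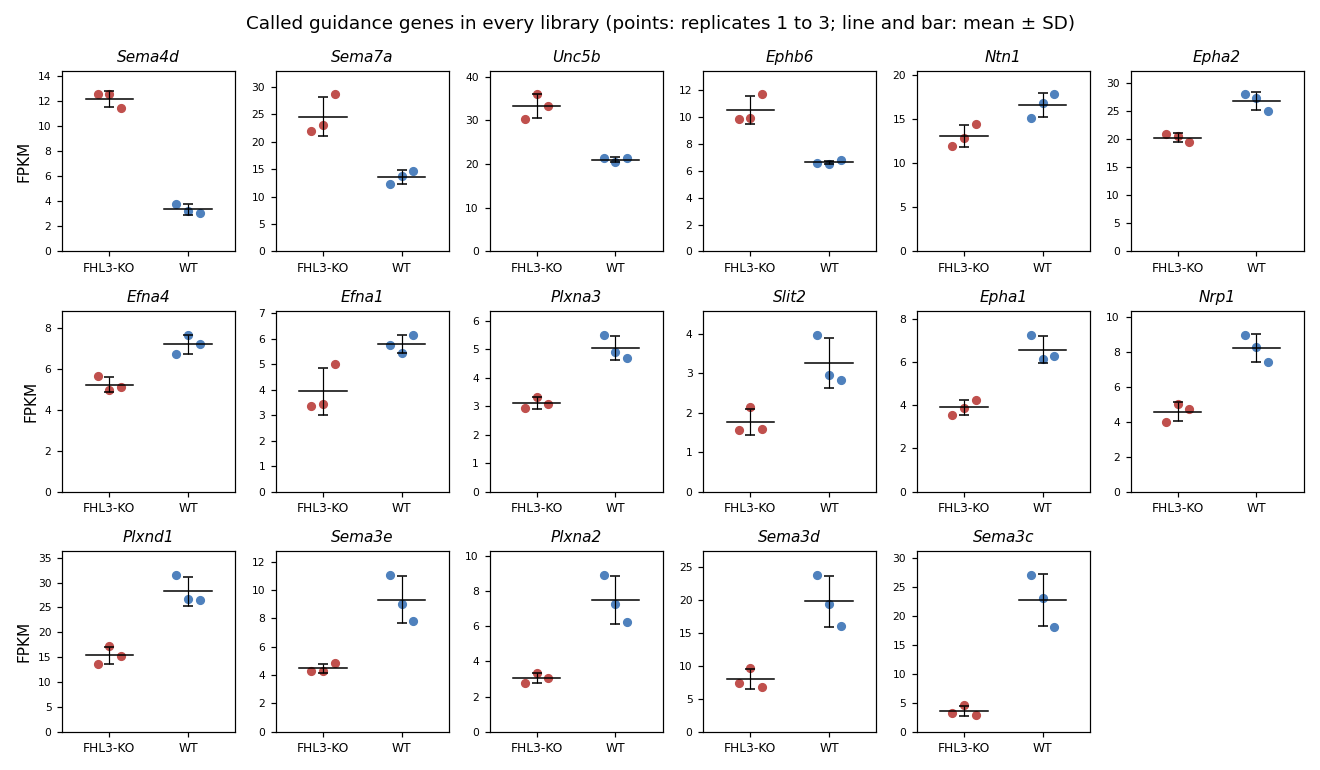
FPKM of the 17 genes that passed the test, in each library, with the 3 libraries labelled FHL3-KO on the left and the 3 WT libraries on the right of each panel; lines and bars are mean ± SD. Sema4d at the start and Sema3c at the end have the widest gaps between groups. The groups overlap in none of the 17 panels, but the genes were picked by a test on these same values.

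The guidance genes tested are long. The summed exon length in GENCODE M21 had a median of 6641 bases in the 37 genes tested and 4114 bases in all genes tested, and of 7301 bases in the 13 that fell and 5016 bases in the 4 that rose. Among the 13 that fell, WT replicate 1 was the highest WT library for 10, and among all 37 tested for 19. Removing each library's trend with exon length and GC content brought the log2 difference of Sema3d to -0.71 (limma adjusted p = 0.000521), of Sema3e to -0.47 (0.0159), of Nrp1 to -0.29 (0.0485) and of Ephb6 to 0.37 (0.00595), all still passing. Sema3c came to -2.004, Plxna2 to -0.89 and Slit2, no longer passing, to -0.24. Sema4d stayed close to its deposited value, at 1.59, while Sema7a came to 0.60 and Unc5b to 0.52. With the trend removed, 20 guidance genes passed, 6 up and 14 down. The other falls grew. Plxnd1 came to -0.95, Epha1 to -0.78, Efna1 to -0.63 and Efna4 to -0.58. Plxna3 came to -0.58, Epha2 to -0.53 and Ntn1 to -0.42. Sema3a, at -0.08 as deposited, came to 0.45 and passed in the other direction (limma adjusted p = 0.0104). Sema3b passed as a fall (-0.23, adjusted p = 0.0274). GC content of the longest transcript was 39.2% in Sema3d, 40.8% in Sema3a, 41.9% in Nrp1, 42.0% in Sema3e and 45.5% in Slit2. It was 60.8% in Plxnd1, 55.2% in Epha1 and 56.8% in Efna4. Length and GC were removed together, and the part of each was not tested.

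**Figure D4:**
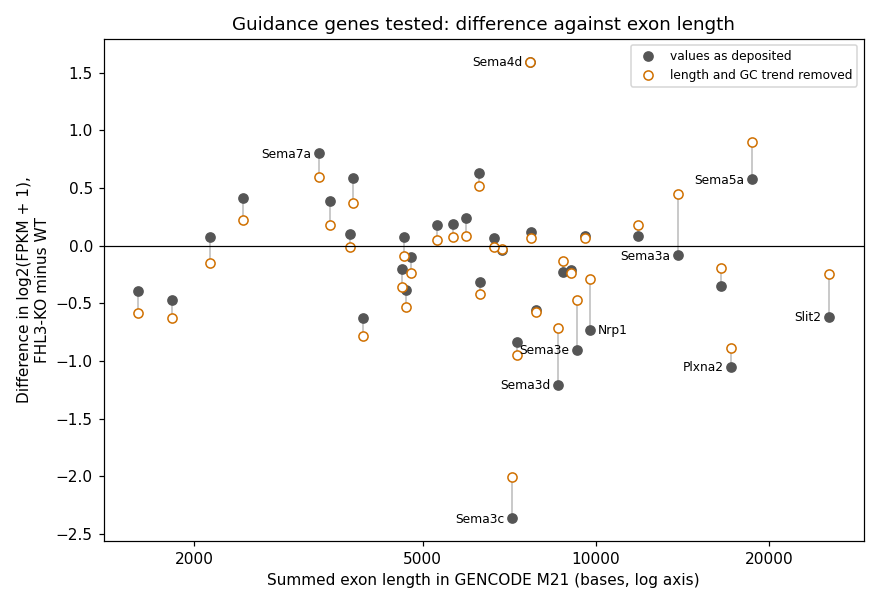
Difference in log2(FPKM + 1), FHL3-KO minus WT, against summed exon length (log axis) for the 37 genes tested, as deposited (filled) and after the length and GC trend was removed (open), joined by a line per gene. Sema3a crosses 0, and Slit2, Nrp1, Sema3d and Sema3e move toward it. Other genes that fell, among them Plxnd1, Epha1 and Efna4, move away from it. Length and GC were removed together, so the part of each is not shown.

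**Figure D5:**
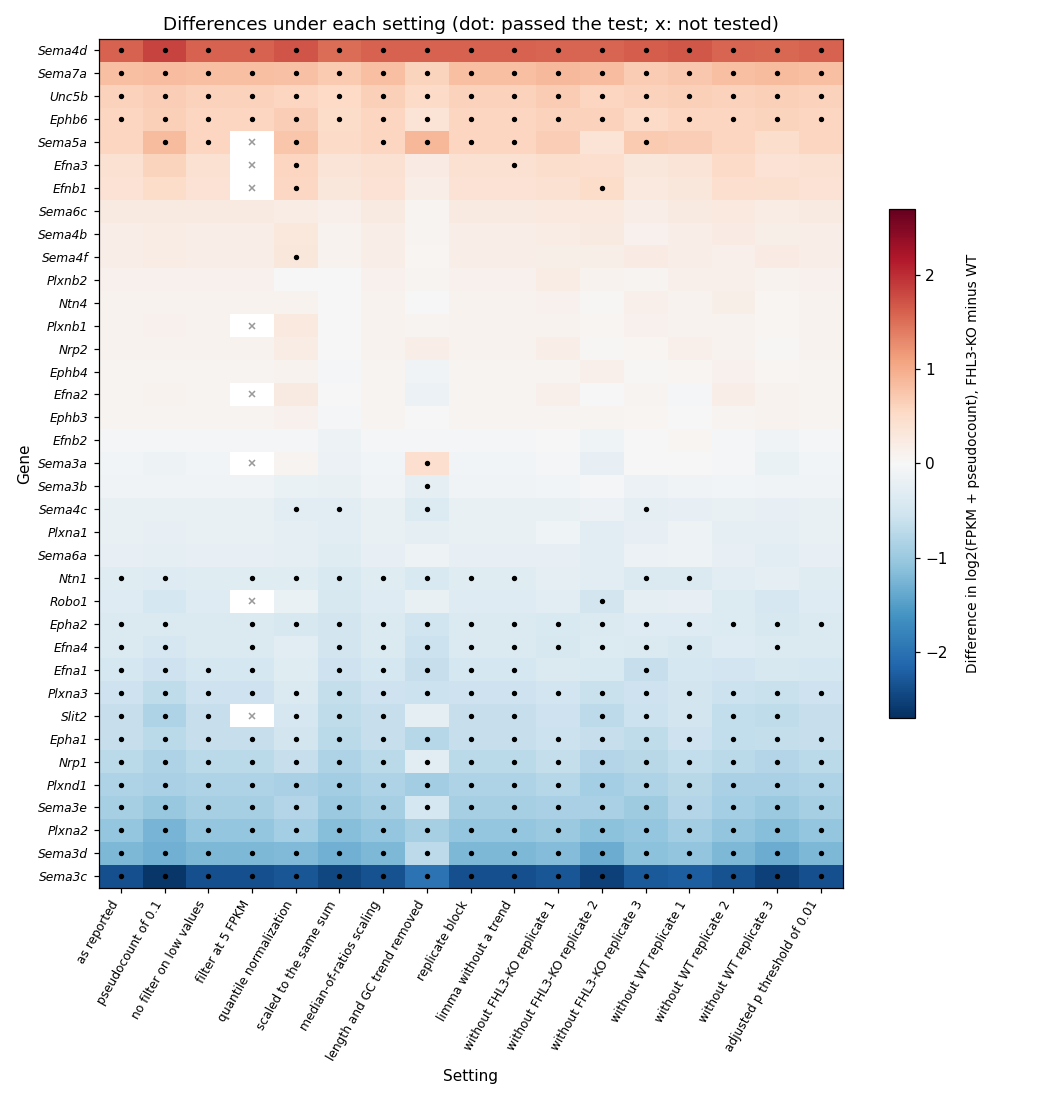
Difference in log2(FPKM + pseudocount), FHL3-KO minus WT, for the 37 genes (rows) as reported and under 16 other settings (columns), red higher and blue lower in libraries labelled FHL3-KO. A dot marks an adjusted p under the threshold and a cross a gene not tested; Sema4d is dotted in red and Sema3c in blue throughout.

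Other genes of guidance signalling were split between directions. Of 59 co-receptors, other ligands, intracellular effectors and sheddases, 46 were tested, of which 10 rose and 13 fell (21.7% and 28.3%, against 19.7% and 21.2% of all genes), with a median log2 difference of -0.07. L1cam, a neuropilin-1 co-receptor and adhesion molecule, fell to 7.42, 8.69 and 8.15 FPKM in libraries labelled FHL3-KO, against 27.6, 23.2 and 22.3 FPKM in WT libraries (log2 difference -1.48, limma adjusted p = 0.000132). Ablim3, an actin-binding protein, rose to 26.5, 29.8 and 27.9 FPKM in libraries labelled FHL3-KO, against 9.95, 9.51 and 10.1 FPKM in WT libraries (log2 difference 1.42, limma adjusted p = 5.18e-05). Ngef, a guanine nucleotide exchange factor that acts downstream of EphA receptors, rose to 6.36, 9.06 and 8.39 FPKM, against 1.72, 1.17 and 2.01 FPKM in WT libraries (log2 difference 1.77, limma adjusted p = 0.000372). Both sheddases, Adam10 and Adam17, fell, at log2 differences of -0.66 and -0.56 (limma adjusted p of 0.0104 and 0.0131).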

How the data were processed

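RNA-seq of 3 libraries labelled FHL3-KO and 3 WT libraries was analysed. The submitters' processing notes name DESeq2 1.28.1, featureCounts 2.0.1, HISAT2 2.2.1, Trim Galore 0.6.6 and the mm10 build, without saying what each did. The authors deposited 1 table of 55420 rows, read here as FPKM because its columns hold decimals and sum to different totals. The sources used here do not give how it was made, or its annotation, strand setting and rule for shared reads, so reads of related or overlapping genes may be split in an unknown way. With FPKM alone the depth of a library is unknown, so values carry no counting interval, and a listed 0 may be an estimate that failed.

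From the deposited FPKM, 7 rows with 3 repeated gene IDs were left out, and the genes were picked by name (each of the 66 names occurred once). Genes whose mean reached 1 FPKM in either group were tested on log2(FPKM + 1) with limma 3.58.1 in R 4.3.3. The test was two-sided, with a mean-variance trend, no covariates, Benjamini-Hochberg adjustment over 12528 genes and a threshold of 0.05. A count test was planned only for a table of read counts. The fit was tested on simulated data. Fold ratios are ratios of mean FPKM. Coordinates and exon lengths come from GENCODE M21 (GRCm38, the same assembly as mm10), which contains 94.1% of the IDs, and promoters from RefSeq on GRCm38.p6. The genes, lists and tests were chosen with earlier results of these data known. Values are given in each library for genes that passed and for genes whose mean reached 10 FPKM in either group, and partner genes are those with the 4 smallest p-values, of which 1 is not reported here; Cacna2d1, Gm8991, Hgf, Neo1, Dcc, Adam10 and Adam17, the genes below the filter and the family shares were chosen after their values were seen. The alternatives were another pseudocount, filter, threshold or scaling, removal of the length and GC trend, a replicate block, limma without a trend, and leaving out each library.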

Additional observations from a re-analysis of the deposited data

How the results depend on the processing

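Over 16 alternatives, 12 of the 17 calls (4 rises and 8 falls) held wherever they were tested, and none of the 17 reversed. Efna1, Efna4, Epha2, Ntn1 and Slit2 each lost the call under at least 1 alternative, Epha2 with no filter on low values (limma adjusted p = 0.0531). Of the tested genes without a call as reported, 7 gained one in the same direction under at least 1 alternative. Sema3a gained one with its sign reversed, after removal of the length and GC trend. Efna5, below the filter as reported, passed with no filter on low values (log2 difference 0.50, limma adjusted p = 0.00249). With 1 library left out, 14 to 19 guidance genes passed, 4 to 5 up and 10 to 14 down, and 3276 (without WT replicate 2) to 5289 of all genes, against 5112. At an adjusted p of 0.01, 2695 of all genes and 13 guidance genes passed. After quantile normalization 8 guidance genes rose. Scaled to the same sum, 36.3% of all calls were rises, against 48.2% as reported, and 4 guidance genes rose and 14 fell.

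Changes of sign were seen only in genes without a call as reported, and the cause was not tested. Scaled to the same sum, they were Efna2 (-0.0108), Ephb3 (-0.0315), Ephb4 (-0.0271), Nrp2 (-0.0064) and Ntn4 (-0.0036). With the length and GC trend removed, they were Efna2 (-0.1489), Ephb3 (-0.0120), Ephb4 (-0.0931), Ntn4 (-0.0087) and Sema3a (0.4466, adjusted p = 0.0104). After quantile normalization, they were Plxnb2 (-0.0181) and Sema3a (0.0671). With 1 library left out, Efna2 ran from -0.0438 to 0.1690, Efnb2 from -0.1062 to 0.0433 and Sema3a from -0.2173 to 0.0184.

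Libraries of different groups correlated at 0.93 to 0.96 over all genes tested, and libraries of the same group at 0.98 to 0.99. After each gene's group mean was subtracted, same-numbered replicates of the 2 groups correlated at -0.13, -0.06 and 0.32. Differently numbered replicates of the 2 groups ran from -0.38 to 0.37. The numbers were therefore not taken to pair the libraries. With a replicate block, 4759 of all genes and 18 guidance genes passed, 5 up and 13 down.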
